A study of Mus musculus with 28 samples.

Results

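The effect of WY14643 on gene expression was examined in the hearts of del337TR mice. The comparison used 14 of the 28 arrays of the study, namely the 7 labelled as del337 given WY14643 and the 7 labelled as del337TR without it, with RNA of 1 animal on each array. The other 14 arrays, 7 from untreated control hearts and 7 from control hearts with WY14643, served to ask where the effect of the compound differed by strain. The untreated group carried the deletion, and the treated group carried the deletion and received a PPARalpha activator. The series title places the strain in the setting of resistance to thyroid hormone. The labels give no dose, route or duration of treatment, no age, sex or genetic background, no statement on a vehicle for the untreated animals, and neither the receptor gene, its promoter nor whether 1 or both copies carry the deletion. The tissue was frozen heart, so every value is an average over myocytes and the other cells of the organ.

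PPARalpha is a ligand-activated nuclear receptor that pairs with a retinoid X receptor and switches on genes for the uptake, activation and oxidation of fatty acids. WY14643 is a synthetic ligand of PPARalpha, best known for inducing peroxisomal and mitochondrial oxidation genes in rodent liver. Thyroid hormone receptors share the retinoid X partner and many lipid targets with it. A receptor that cannot bind its hormone but still occupies its sites holds hormone-dependent genes down, which is the molecular basis of resistance to thyroid hormone.

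The values are fluorescence signals on a linear scale, 1 per probe set, scaled so that the trimmed mean of every array was 250. A probe set is a group of short probes that together read 1 transcript. Differences are given on the log2 scale as treated minus untreated, with the standard error (SE) of limma, for 7 arrays per group. Signals of a single gene are given as the lowest to the highest of the 7 arrays with the median. Of 45101 probe sets, 45037 were tested and 34945 of them carried 1 gene symbol, which named 18193 genes. The median signal of an array lay between 61.8 and 76.6 in the untreated group and between 67.5 and 77.8 in the treated group. The 3' to 5' ratio of beta-actin, a measure of RNA integrity, was 1.17 to 1.37 without and 1.09 to 1.34 with the compound. The cardiac myosin genes Myh6 and Myh7 gave some of the brightest signals on all 14 arrays. The atrial light chain Myl4 ranged from 707 to 13860 in the untreated and from 166 to 14213 in the treated hearts, a wide spread within each group. By Xist and Eif2s3y, 4 of the 7 untreated but 1 of the 7 treated arrays came from females. Sex was therefore uneven between the groups, and values were also taken with sex as a covariate and from male arrays alone (3 untreated, 6 treated). With sex as a covariate the median turned sign in 6 of 35 gene lists, and in male arrays alone in 16. Of 93 named probe sets, male arrays turned the sign of 10 and shrank the difference of another 29 by more than 1.5 times. The part of sex in these results was not tested beyond such fits, and values for male arrays are given beside many of the results they move.

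No probe set passed an adjusted p of 0.05 in the comparison of treated with untreated del337TR hearts (0 of 45037, 0.0%, limma with Benjamini-Hochberg adjustment). The lowest adjusted p with limma, 0.239, belonged to a probe set of Cdc16. At an unadjusted p under 0.05 limma counted 2601 probe sets, 5.78% of those tested, where a share of 5 percent would be 2252. These were split into 1328 higher (2.95%) and 1273 lower (2.83%) in the treated hearts. Centring each array on its own median moved this split to 997 higher and 1604 lower. For the 18532 probe sets with a mean signal of at least 100, the median SE was 0.132, 5.73% had an unadjusted p under 0.05, and 41 of them differed by more than 1 on the log2 scale. In 33 probe sets (0.0733%) all 7 treated arrays lay above or all below the 7 untreated arrays, 17 of them higher (0.0377%) and 16 lower (0.0355%). Over all probe sets 53.1% had a difference above 0, the background for counts of higher members in a gene list. That share holds for the fit over all arrays only. In male arrays alone 1538 probe sets were higher and 648 lower at an unadjusted p under 0.05 with limma. Their share above 0 is not given, so counts from male arrays stand without a background. All gene values that follow are sizes with their errors, and none of them passed the adjusted threshold.

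Ppara, which encodes the receptor that WY14643 binds, gave a lower mean signal in the treated hearts on each of its 3 probe sets with 1 symbol. The brightest read 871 to 1134 (median 1044) without the compound and 481 to 1002 (median 799.9) with it. On it 5 of the 7 treated arrays lay below the lowest untreated array, yet the groups overlapped. The difference was -0.49 ± 0.18 (SE), with a 95% interval of -0.86 to -0.13 and an adjusted p of 0.783 with limma. The other Ppara probe sets differed by -0.47 ± 0.15 and -0.43 ± 0.20. With sex as a covariate the difference of the brightest Ppara probe set was -0.50, and in male arrays alone it was -0.52. Pparg, the PPAR of fat cells and lipid storage, was faint at 34.9 to 119.6 (median 76.3) untreated and 14.4 to 74.6 (median 33.6) treated. Its difference was -0.96 ± 0.32 (SE), and 4 treated arrays lay below all untreated ones. Among the 18 measured receptors and cofactors, 5 were higher and 13 lower in the mean, and Ppara and Pparg were the 2 at an unadjusted p under 0.05, both lower, against 2.83% of all probe sets in that direction. The list had a median difference of -0.042 beside 0.016 for all probe sets. The corepressor Nrip1 (0.18 ± 0.091) and the coactivator Ncoa1 (0.17 ± 0.10) had the next smallest p-values of the list.

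The thyroid hormone receptor genes themselves gave small differences. The brightest Thra probe set read 702 to 1163 (median 1079.8) without and 739 to 1067 (median 940.5) with WY14643, a difference of -0.059 ± 0.12. The other Thra probe sets differed by -0.25 ± 0.16 and -0.51 ± 0.22, so the probe sets of this gene did not give 1 size. Thrb read 93.5 to 197 (median 148) and 96.5 to 173 (median 151), a difference of -0.039 ± 0.15 with a 95% interval of -0.36 to 0.28. Its direction turned when any of 4 arrays was left out. These probe sets cannot show the deletion, since the array reports no sequence and the labels do not say which receptor carries it.

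The known PPAR targets of lipid uptake, storage and fuel switching were the first group at which a response to the compound would be read. Of 22 measured, 15 were higher and 7 lower in the treated hearts, and 0 of 22 reached an unadjusted p under 0.05 in either direction. The median difference was 0.047 over the list and 0.016 over all probe sets, and it was 0.0026 from male arrays alone. Pdk4, the kinase that shuts pyruvate dehydrogenase when fat is burned, read 10957 to 13849 (median 12375) untreated and 10827 to 16817 (median 12046) treated. The groups overlapped, and the difference was 0.10 ± 0.087 (SE), with a 95% interval of -0.077 to 0.28 and an adjusted p of 0.932 with limma. From male arrays alone the difference of Pdk4 was -0.0054. Ucp3, a mitochondrial carrier induced by fatty acids, read 463, 471, 643, 409, 678, 544 and 712 on the untreated arrays. With WY14643 the Ucp3 signals were 611, 576, 945, 689, 401, 370.2 and 368. The treated arrays spread wider, with 1 above and 3 below the whole untreated range, and the difference was -0.038 ± 0.28 (SE). Its direction turned when any of 6 arrays was left out.

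Cd36, a fatty acid transporter, read 8761 to 10157 (median 9516) without and 7946 to 12489 (median 9544) with the compound, a difference of 0.065 ± 0.083. Fabp3, the fatty acid binding protein of heart muscle, read 16494 to 20674 (median 17815) and 16031 to 26183 (median 19339.7), a difference of 0.14 ± 0.10. Both genes sat near the top of the signal range of the arrays. The thioesterases Acot1 and Acot2, which release fatty acids from coenzyme A and are close paralogs whose probes may read each other, differed in opposite directions, by -0.27 ± 0.24 and 0.21 ± 0.13. Angptl4, a secreted inhibitor of lipoprotein lipase, read 479 to 1378 (median 812) untreated and 289 to 1518 (median 689) treated. The treated array at the top of that range stood apart from the other 6, which reached 709 at most, and the difference of Angptl4 was -0.60 ± 0.46 (SE). Mgll, which cleaves monoacylglycerol, differed by 0.17 ± 0.13. Cpt1b was not matched to a probe set with 1 symbol and is not analysed here.

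Genes of fatty acid oxidation inside mitochondria lay in a narrow range. Of 19 measured genes 15 were higher and 4 lower, all between -0.054 and 0.095, and 0 of 19 had an unadjusted p under 0.05. The median was 0.030, turning to -0.0071 when arrays were centred on their medians and to -0.017 in male arrays alone. Acadm, the medium-chain acyl-CoA dehydrogenase, had the largest difference of them and read 11458 to 13963 (median 11884) without and 11057 to 16530.1 (median 12546) with WY14643. Its difference was 0.095 ± 0.085 (SE) with a 95% interval of -0.080 to 0.27, so a change of more than 0.27 upward lay outside the interval. Acadl, for long chains, and Hadhb, a subunit of the trifunctional protein, differed by 0.075 ± 0.093 and 0.074 ± 0.090.

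The peroxisomal and microsomal genes split evenly, with 9 of 17 higher and 8 lower and 0 at an unadjusted p under 0.05, but 5 of 17 were higher in male arrays alone. Ehhadh, the peroxisomal bifunctional enzyme and a standard marker of PPARalpha activation in liver, read 287, 255, 220.3, 338, 401, 279 and 269.8 on the untreated arrays. The treated arrays gave Ehhadh signals of 689, 486, 282, 682, 524, 206 and 283. Of these, 4 lay above and 1 below the untreated range. The difference was 0.51 ± 0.27 (SE), with a 95% interval of -0.046 to 1.07 and an adjusted p of 0.888 with limma, and it was 0.23 ± 0.27 in control hearts. Abcd2, a peroxisomal importer of very long fatty acids, differed by -0.51 ± 0.26 and Scp2, a sterol carrier protein, by 0.13 ± 0.10. All 3 measured ketone body genes were higher in the mean, among them Bdh1 (0.21 ± 0.14) and Oxct1 (0.11 ± 0.078), which oxidise ketone bodies. The respiratory chain and ATP synthase list had 36 of 44 members higher with a median of 0.046, but the median was -0.025 after quantile normalization. In male arrays alone 5 of 44 were higher and the median was -0.054, and with sex as a covariate 41 of 44 were higher with a median of 0.077. The same list had a median of 0.16 in control hearts, where 44 of 44 were higher, against 44.6% of all probe sets, and 11 had an unadjusted p under 0.05, all higher, against 2.39%.

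**Figure D1:**
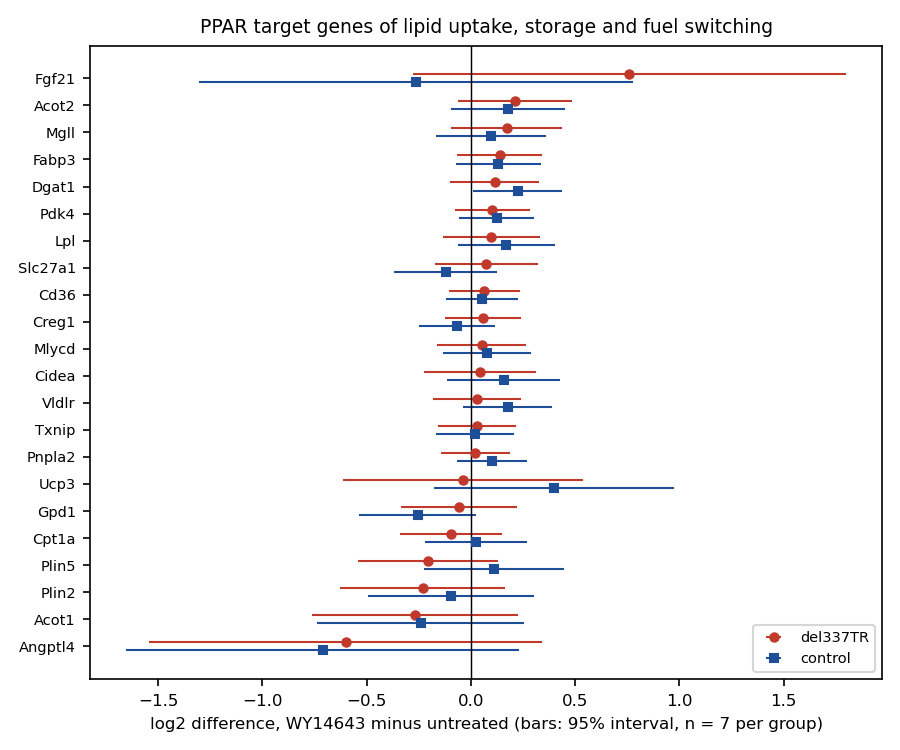
Log2 difference of WY14643 minus untreated (x axis) for each measured PPAR target gene of lipid uptake, storage and fuel switching (y axis), with del337TR as red circles, control as blue squares and bars for the 95% interval of limma with 7 arrays per group. For the 22 genes in del337TR hearts every interval spans 0, and Fgf21 and Angptl4 have the widest.

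Genes under thyroid hormone control were examined because the strain is one of hormone resistance. Of 15 genes known to be induced by the hormone, 6 were higher and 9 lower with WY14643, and 1 was lower at an unadjusted p under 0.05, against 2.83% of all probe sets in that direction. That gene was Kcna5, a potassium channel, at 209.8 to 768 (median 345) untreated and 102 to 589 (median 173) treated, a difference of -0.90 ± 0.40 (SE). The atrial marker Myl4 varied widely within both groups. With the mean log2 signal of the atrial genes Myl4, Myl7 and Sln as a covariate, the difference of Kcna5 was -0.81. Atp2a2, the calcium pump of the sarcoplasmic reticulum, differed by 0.15 ± 0.11. Myh6, the fast myosin that the hormone induces, read 13135 to 16612 (median 14093) and 12560.2 to 20932 (median 15543), a difference of 0.087 ± 0.11, and -0.0034 after quantile normalization. Myh7, the slow myosin that it represses, read 14572 to 19366 (median 17465) and 14677 to 24981 (median 18499), a difference of 0.088 ± 0.38, and -0.015 after quantile normalization. The SE of Myh7 was 0.13 when the 14 del337TR arrays were fitted alone. Of 8 genes repressed by the hormone, 3 were higher and 5 lower, none of them at an unadjusted p under 0.05, and 5 were higher in male arrays alone. Tnni1, the slow skeletal troponin I of fetal heart, had the largest difference of these at -1.15 ± 0.70 and was faint.

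Genes of lipid synthesis stood lower more often than higher. Of 19 measured, 4 were higher and 15 lower, and 2 had an unadjusted p under 0.05, both lower, against 2.83% of all probe sets in that direction. The median was -0.12 in del337TR hearts and 0.059 in control hearts, and it was -0.036 in male del337TR arrays alone. Fasn, fatty acid synthase, read 275, 238, 305, 417, 250.2, 332 and 248 on the untreated arrays. On the treated arrays Fasn read 223, 214, 186, 231, 195, 195 and 159.7. Every treated array lay below every untreated array, though the closest, 231 against 238, were nearly level. The difference of Fasn was -0.54 ± 0.16 (SE), a geometric mean 1.45 times lower with WY14643, with an adjusted p of 0.767 with limma. It was -0.39 with sex as a covariate and -0.44 in male arrays alone.

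Scd1, the desaturase that makes monounsaturated fat, read 654 to 1560 (median 812) without and 527 to 702 (median 605) with the compound. Here 5 treated arrays lay below all untreated ones, and the difference was -0.57 ± 0.19 (SE) with an adjusted p of 0.767 with limma, and -0.37 in male arrays alone. In control hearts Scd1 differed by 0.27 ± 0.19, and the difference between the strains' effects was -0.85 ± 0.28 with an adjusted p of 0.956 with limma. Lpin1, a phosphatidate phosphatase, differed by -0.26 ± 0.19 in del337TR and by 0.32 ± 0.19 in control hearts, a difference of effects of -0.58 ± 0.27. Thrsp, a lipogenic protein induced by thyroid hormone, differed by -0.17 ± 0.22 and 0.47 ± 0.22, a difference of effects of -0.64 ± 0.31. Dgat2, which completes triglyceride synthesis, was among the 4 higher, at 0.29 ± 0.19. G0s2, a small inhibitor of the triglyceride lipase of muscle and fat, read 229 to 1403 (median 479.9) untreated and 141 to 343 (median 285) treated. Its untreated arrays were widely spread, 3 treated arrays lay below all of them, and the difference was -1.20 ± 0.33 (SE) with an adjusted p of 0.767 with limma, and -0.81 in male arrays alone.

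Markers of adipocytes, which form the fat around the heart, stood lower with WY14643. Of 11 measured, 4 were higher and 7 lower, and 6 had an unadjusted p under 0.05, all lower, against 2.83% of probe sets in that direction. The median was -0.35 in del337TR and 0.074 in control hearts. Adipoq, the fat cell hormone adiponectin, read 90.7, 71.9, 103, 215, 40.1, 94.4 and 84.8 on the untreated arrays. With the compound Adipoq stood at 32.3, 49.9, 16.9, 62.4, 65.6, 33.2 and 23.2. The groups overlapped through 1 low untreated array, and 4 treated arrays lay below it. The difference of Adipoq was -1.30 ± 0.44 (SE), with a 95% interval of -2.19 to -0.40 and an adjusted p of 0.767 with limma. Retn, the fat cell hormone resistin, read 98.9 to 232 (median 128) and 34.5 to 154 (median 65.8), a difference of -1.08 ± 0.33 (SE). Car3, a carbonic anhydrase abundant in fat, read 133 to 1251 (median 556) and 101 to 329 (median 205), a difference of -1.49 ± 0.55 (SE), and -0.96 in male arrays alone. Lipe, hormone-sensitive lipase, differed by -0.35 ± 0.14, and Cidec, a lipid droplet protein, by -2.09 ± 0.67 at signals of at most 40.1.

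In bulk tissue, fewer fat cells in the sample and less RNA of these genes per cell cannot be told apart. The mean log2 signal of the adipocyte list lay between 6.97 and 7.83 on the untreated and between 6.12 and 7.01 on the treated arrays, and between 6.72 and 8.18 in untreated and 6.91 and 7.42 in treated control hearts. The summed signal of the list, which Fabp4 dominates, ranged from 10903 to 13955 without and from 10172 to 16130 with the compound. Fabp4, which capillary endothelium also makes, differed by 0.015 ± 0.11 and Cidea by 0.043 ± 0.13, and both were named after their values were seen, as were Car3 and Lipe. Other Fabp4 probe sets with a mean signal of at least 100 differed by -0.73 ± 0.39, -0.097 ± 0.20 and 0.13 ± 0.11, so the probe sets of Fabp4 did not give 1 direction. No defining marker was at 0 on average, but 2 of the 11, Ucp1 and Cidec, had a mean signal below 20. With the adipocyte mean as a covariate the difference was -0.22 for Fasn, -0.038 for Scd1 and -0.78 for G0s2, and the probe sets with an unadjusted p under 0.05 numbered 1607 in place of 2601. The adipocyte mean nearly separated the treated from the untreated group, so as a covariate it also widened the errors. For Brcc3, described below, the difference was 0.63 ± 0.14 (SE) without and 0.62 ± 0.18 with the covariate. The lower count therefore cannot be assigned to fat content. The covariate itself contains Pparg and other genes that differed, and its part in these results was not tested further. In control hearts Adipoq differed by 0.58 ± 0.44, and the difference between the strains' effects was -1.87 ± 0.62, with an adjusted p of 0.956 with limma. Of the 11 markers, 5 had an unadjusted p under 0.05 for that difference, against 4.9% of all probe sets.

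**Figure D2:**
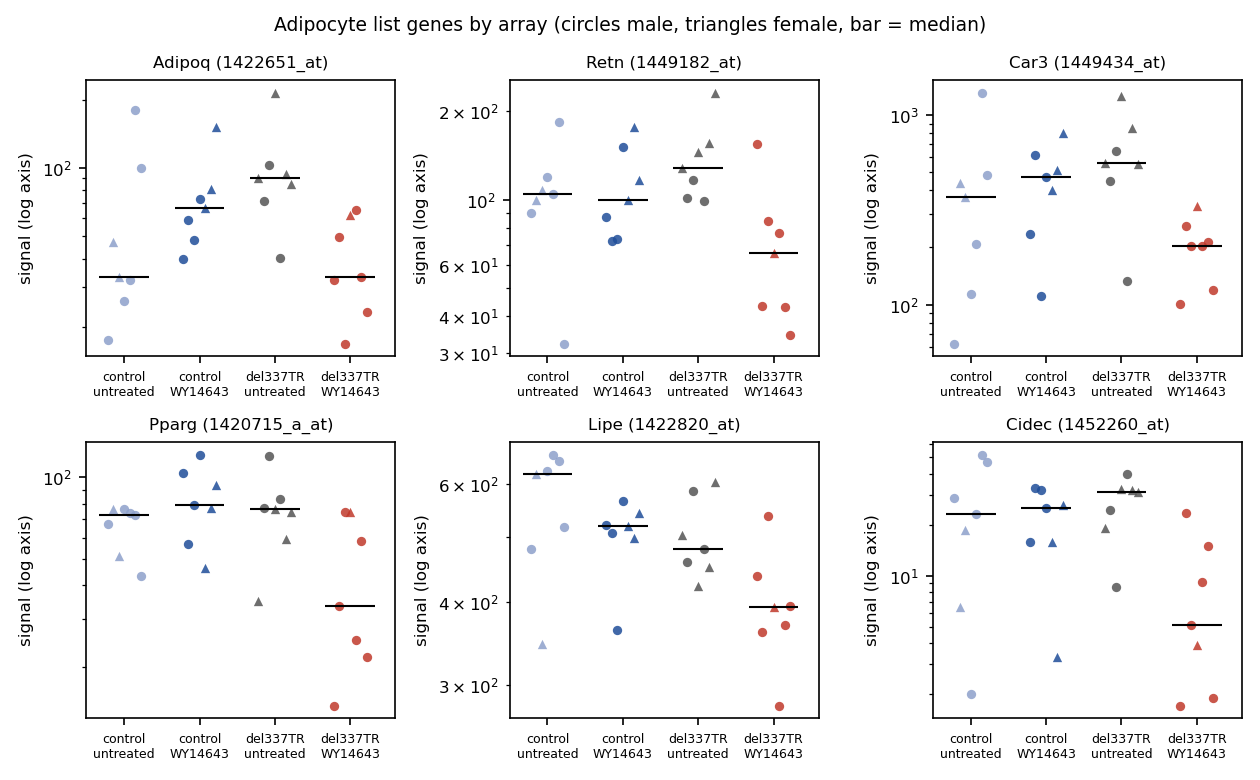
Signal on a log axis (y) of 6 adipocyte list genes on each array in the 4 groups (x axis), with circles for arrays with male and triangles for arrays with female sex-linked signals and bars for group medians. Shown are the 6 of 11 measured markers that were lower in treated del337TR hearts at an unadjusted p under 0.05 with limma. The other markers, 4 of them higher, are not shown. In treated del337TR hearts the Adipoq arrays run from 16.9 to 65.6 against 40.1 to 215 untreated, and the Adipoq groups overlap in del337TR and in control hearts.

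Chaperones of the heat shock response stood higher. Of 19 measured, 18 were higher and 1 lower, against 53.1% of all probe sets above 0, and 5 had an unadjusted p under 0.05, all higher, against 2.95% of probe sets in that direction. The list median was 0.14, 0.12 after quantile normalization and 0.054 in male arrays alone, where 13 of 19 were higher. In control hearts 15 of 19 were higher, with a median of 0.089 and 0 at an unadjusted p under 0.05. Hspb8, a small heat shock protein that works with Bag3 in clearing damaged sarcomere proteins, read 3899.7, 4406, 4539.5, 4859, 5630, 4407 and 4122 on the untreated arrays. On the treated arrays its brightest probe set read 4522, 5228, 6051, 6144, 6255, 6232 and 5307. The groups overlapped, with 4 treated arrays above all untreated ones, and the difference was 0.32 ± 0.094 (SE) with an adjusted p of 0.767 with limma, and 0.20 in male arrays alone. The second Hspb8 probe set differed by 0.39 ± 0.10 and another, dimmer one by -0.77 ± 0.26, so the probe sets of Hspb8 disagreed in direction.

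Hspa1a, an inducible Hsp70, read 335, 587, 856, 463, 731, 158 and 275 on the untreated arrays. With WY14643 Hspa1a stood at 577, 789.6, 1019, 598, 584, 842 and 1341. All 4 untreated females, on replicates 1, 4, 6 and 7, lay below the 3 untreated males, and 2 treated arrays lay above all untreated ones. The difference of Hspa1a was 0.89 ± 0.33 (SE), with a 95% interval of 0.22 to 1.56 and an adjusted p of 0.794 with limma, and it was 0.67 with sex as a covariate and 0.20 in male arrays alone. Hspa1b, the neighbouring Hsp70 gene, differed by 0.69 ± 0.29 (SE), by 0.48 with sex as a covariate and by 0.29 in male arrays alone. The 2 genes encode nearly identical messages, so their probe sets may read each other and count as 1 observation. Dnajb1, the Hsp40 partner of Hsp70, differed by 0.39 ± 0.16 and Hsp90aa1, the inducible Hsp90, by 0.25 ± 0.12. A second Dnajb1 probe set with a mean signal of at least 100 differed by only 0.039 ± 0.087. The other Hsp90aa1 probe sets at that signal differed by 0.28 ± 0.15 and 0.30 ± 0.14.

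The upstream sequences of the Hsp70 pair are shown because these genes are near copies of each other and stood higher together in the mean. They are the 250 bases before each RefSeq start site of build GRCm38.p6, on the minus strand of chromosome 17 (Hspa1a chr17:34972157-34972406, Hspa1b chr17:34959239-34959488), read 5' to 3', with the 1 match to GAANNTTC, a pair of heat shock factor units, in capitals.
Hspa1a: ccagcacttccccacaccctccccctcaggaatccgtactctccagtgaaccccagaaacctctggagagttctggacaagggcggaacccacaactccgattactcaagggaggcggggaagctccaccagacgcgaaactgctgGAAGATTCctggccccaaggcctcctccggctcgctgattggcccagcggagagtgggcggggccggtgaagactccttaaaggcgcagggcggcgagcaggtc
Hspa1b: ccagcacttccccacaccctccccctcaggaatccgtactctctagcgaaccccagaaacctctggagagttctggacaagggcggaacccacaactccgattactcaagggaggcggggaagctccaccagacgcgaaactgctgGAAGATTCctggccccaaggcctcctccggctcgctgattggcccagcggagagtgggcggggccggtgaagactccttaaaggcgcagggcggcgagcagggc
The windows differ at 3 of 250 bases. Searched on both strands, GAANNTTC occurred in 6 of 21 windows of the heat shock list and in 6.69% of all 32851 windows, and its counterpart TTCNNGAA in 5 of 21 and 7.17%. The half-site AGGTCA of nuclear receptors occurred in 5 of 22 windows of the PPAR target list and in 14.02% of all. The DR1 element, 2 such half-sites in a row with 1 base between them, occurred in 0 of 22 and 0.0335%. A match describes letters in this window only.

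**Figure D3:**
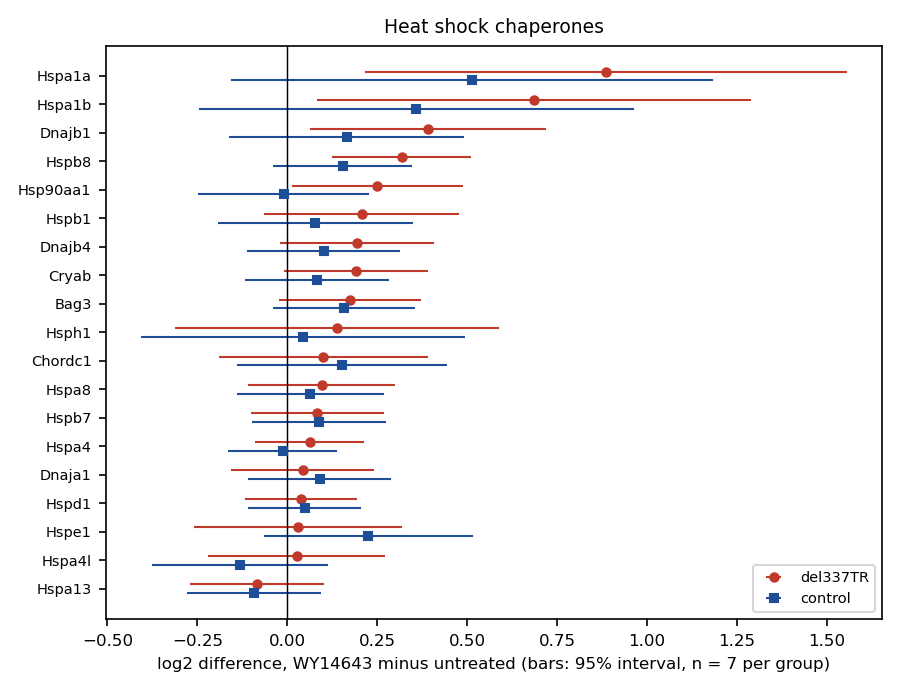
Log2 difference of WY14643 minus untreated (x axis) for the 19 measured heat shock chaperones (y axis), with del337TR as red circles, control as blue squares and bars for the 95% interval of limma with 7 arrays per group. In del337TR hearts 18 of 19 points lie right of 0, and the intervals of Hspa1a, Hspa1b, Dnajb1, Hspb8 and Hsp90aa1 leave 0 out.

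Immediate early genes, the first to answer a stimulus, were mixed. Of 22 measured, 16 were higher and 6 lower. At an unadjusted p under 0.05 stood 2 of the higher and 1 of the lower, against 2.95% and 2.83% of all probe sets. Nr4a3, an orphan nuclear receptor of that class, read 281, 409.9, 305, 258, 861, 128 and 212 on the untreated arrays. The treated arrays gave Nr4a3 signals of 728, 452, 265, 716, 1245, 1126 and 815. The groups overlapped, with 2 treated arrays above the highest untreated array, and the difference was 1.20 ± 0.41 (SE) with an adjusted p of 0.767 with limma, 0.52 in male arrays alone. Jund, an AP-1 subunit, differed by 0.27 ± 0.13, Ier3, a stress-induced survival gene, by -0.68 ± 0.32 (-0.25 in male arrays alone), and Klf6, a zinc finger factor, by -0.28 ± 0.15. Of 15 glucocorticoid responsive genes, 9 were higher and 6 lower with a median of 0.11, but in male arrays alone 2 of 15 were higher and the median was -0.18. Of the 15, 1 was higher at an unadjusted p under 0.05, against 2.95% of all probe sets. It was Gadd45g, a growth arrest gene, at 0.56 ± 0.26 in del337TR and 0.60 ± 0.26 in control hearts, and 0.27 in male del337TR arrays alone.

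Cells other than myocytes and adipocytes were read through their markers. Of 8 smooth muscle and pericyte markers, 1 was higher and 7 lower, and 2 had an unadjusted p under 0.05, both lower, against 2.83% of all probe sets in that direction. The list median was -0.35, and with the adipocyte mean as a covariate it was -0.012, with 4 of 8 higher. Tagln, an actin binding protein of smooth muscle, read 277 to 1249 (median 542) untreated and 208 to 463 (median 337) treated, a difference of -0.75 ± 0.32 (SE), and -0.046 with the adipocyte covariate. Pdgfrb, the pericyte receptor for platelet-derived growth factor, read 565 to 1439.5 (median 750.2) and 443 to 711 (median 560.4), a difference of -0.42 ± 0.20 (SE), and -0.21 with that covariate. For both genes the highest untreated array stood apart from the rest. The summed signal of the list ranged from 8655 to 12548 untreated and from 9479 to 11130 treated. The 10 fibroblast markers were divided 5 and 5, and 1 was lower at an unadjusted p under 0.05, against 2.83% of all probe sets. It was Tcf21, a transcription factor of epicardial origin, at -0.45 ± 0.15 and -0.19 in male arrays alone. The fibroblast receptor Pdgfra differed by -0.43 ± 0.22. The 12 endothelial markers were divided 6 and 6, with Vwf, the clotting carrier of endothelium, at -0.57 ± 0.21. In male arrays alone 10 of the 12 were higher, with a list median of 0.16 in place of -0.025, and Vwf differed by -0.35. Of 12 leukocyte and 5 ventricular markers 0 had an unadjusted p under 0.05.

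Among fetal and hypertrophy genes 6 of 15 were higher and 9 lower. Hand2, a transcription factor of the developing heart, read 1193 to 3193 (median 2203) without and 447 to 2679 (median 1156) with WY14643, and 4 treated arrays lay below all untreated ones. Its difference was -0.86 ± 0.30 (SE) with an adjusted p of 0.783 with limma. Gata4, its partner in heart development, differed by -0.31 ± 0.19. Of 18 calcium handling genes 9 were higher and 9 lower, with Camk2g, a subunit of the calcium and calmodulin kinase, at -0.31 ± 0.13.

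**Figure D4:**
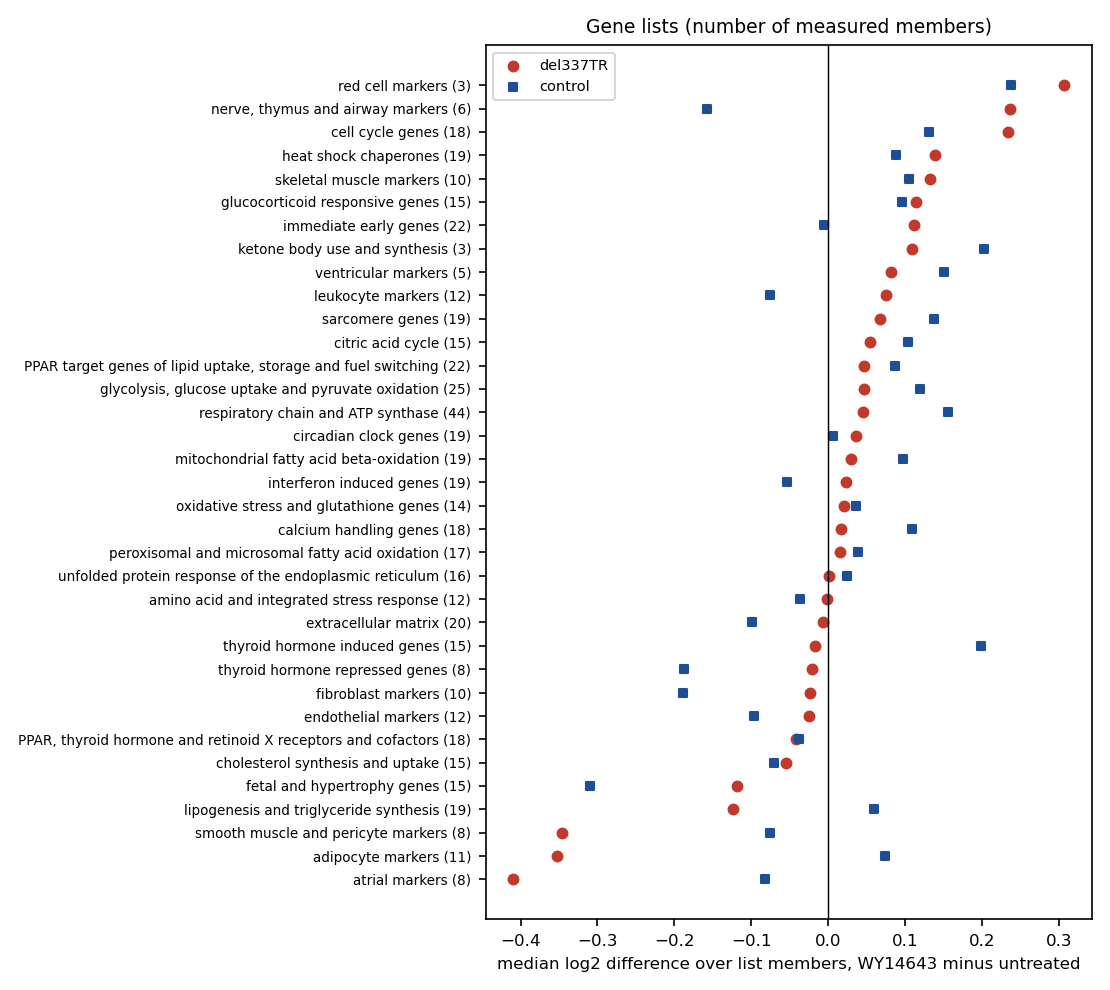
Median log2 difference of WY14643 minus untreated over the measured members of each gene list (x axis), with the list and its number of measured members on the y axis, del337TR as red circles and control as blue squares. In del337TR hearts the adipocyte median lies at -0.35 and the heat shock median at 0.14, while the PPAR target median lies at 0.047.

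Outside the lists, the probe sets with the smallest p-values belonged to Brcc3 and Fbxw7 among those with a mean signal of at least 100. Fbxw7, the substrate receptor of a ubiquitin ligase, read 398, 559, 704, 449.8, 352, 804 and 584 on the untreated arrays. With the compound Fbxw7 stood at 294, 281, 439, 263, 277, 273 and 330.2. All but 1 of the treated arrays lay below every untreated array. Its difference was -0.80 ± 0.18 (SE), a geometric mean 1.74 times lower, with a 95% interval of -1.17 to -0.44 and an adjusted p of 0.613 with limma. A second Fbxw7 probe set differed by -0.55 ± 0.18, and in control hearts the first differed by -0.40 ± 0.18. Brcc3, a deubiquitinase, read 88.9 to 168 (median 118) and 159 to 224 (median 198), a difference of 0.63 ± 0.14 (SE) with an adjusted p of 0.613 with limma. The difference of Brcc3 was 0.62 with sex as a covariate and 0.43 ± 0.19 in male arrays alone. Its other 2 probe sets of comparable signal differed by 0.047 and -0.093, so the probe sets of Brcc3 did not give 1 direction.

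Cdc20, the activator of the anaphase ubiquitin ligase, read 113, 127, 144, 159.7, 156, 161 and 105 on the untreated arrays. On the treated arrays Cdc20 read 206, 184, 207, 218, 182, 167 and 178. The groups did not overlap, the nearest arrays being 161 and 167, and the difference was 0.49 ± 0.12 (SE) with an adjusted p of 0.767 with limma. In control hearts Cdc20 differed by 0.072 ± 0.12, and the difference of effects was 0.42 ± 0.16. Resf1, a factor that represses retroelements, differed by 0.81 ± 0.22, and by 0.50 in male arrays alone. Fbln2, a matrix protein of basement membranes, differed by 0.40 ± 0.12, Mtm1, a lipid phosphatase mutated in myopathy, by 0.44 ± 0.12, and Nolc1, a nucleolar protein, by 0.39 ± 0.11. Mllt10, a cofactor of histone methylation, differed by -0.60 ± 0.14, Kmt2e, a chromatin protein, by -0.61 ± 0.17, Id3, an inhibitor of helix-loop-helix factors, by -0.56 ± 0.15, Irf2bp1 by -0.41 ± 0.11 and Ints12, an Integrator subunit, by -0.39 ± 0.11. The adjusted p with limma was 0.767 for Resf1 and the same for the 8 named after it. Other probe sets with a mean signal of at least 100 differed by 0.0043 ± 0.085 for Mtm1, -0.10 ± 0.17 for Nolc1 and -0.063 ± 0.12 for Ints12. Those of Resf1 (0.39 to 0.72) and Kmt2e (-0.51 to -0.33) kept the direction.

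Of the 18532 probe sets with a mean signal of at least 100, 13 had no overlap between the groups (0.0701%), 4 higher and 9 lower. Actn1, the alpha-actinin of non-muscle cells, read 688 to 954 (median 786) untreated and 566 to 646 (median 628) treated, a difference of -0.38 ± 0.10 (SE). Ttc9c, a repeat protein, read 353 to 442 (median 411) and 299.6 to 327 (median 312), a difference of -0.33 ± 0.090 (SE). Slk, a kinase, read 568 to 717 (median 649) and 729.8 to 826 (median 766), a difference of 0.25 ± 0.10 (SE), and its second probe set differed by 0.28 ± 0.078 with 6 treated arrays above all untreated ones. Tsc22d4, a transcriptional regulator linked to lipid metabolism, read 84.5 to 99.6 (median 96.2) and 106 to 147 (median 124), a difference of 0.39 ± 0.12 (SE). Laptm5, a lysosomal protein of blood cells, was the fourth higher, at 0.46 ± 0.21. Its other probe sets with a mean signal of at least 100 differed by 0.18 ± 0.23, -0.18 ± 0.14 and -0.20 ± 0.25, so they did not give 1 direction. The remaining lower ones were Dnajc1 (-0.45 ± 0.11), Smarcd2 (-0.40 ± 0.13), Fchsd2 (-0.34 ± 0.12), Gpr137b (-0.30 ± 0.10), Dll1 (-0.52 ± 0.19) and Cflar (-0.27 ± 0.12), besides Fasn. Other Ttc9c probe sets with a mean signal of at least 100 differed by 0.056 ± 0.18 and -0.14 ± 0.17. Those of Smarcd2 differed by 0.35 ± 0.25 and -0.16 ± 0.11, and that of Dnajc1 by -0.039 ± 0.11. Those of Slk, Tsc22d4, Gpr137b and Cflar kept the direction. With sex as a covariate the difference was -0.39 for Actn1, -0.30 for Ttc9c, 0.42 for Tsc22d4 and 0.18 for the first Slk probe set. In male arrays alone it was -0.22 for Ttc9c and 0.19 for that Slk probe set.

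**Figure D5:**
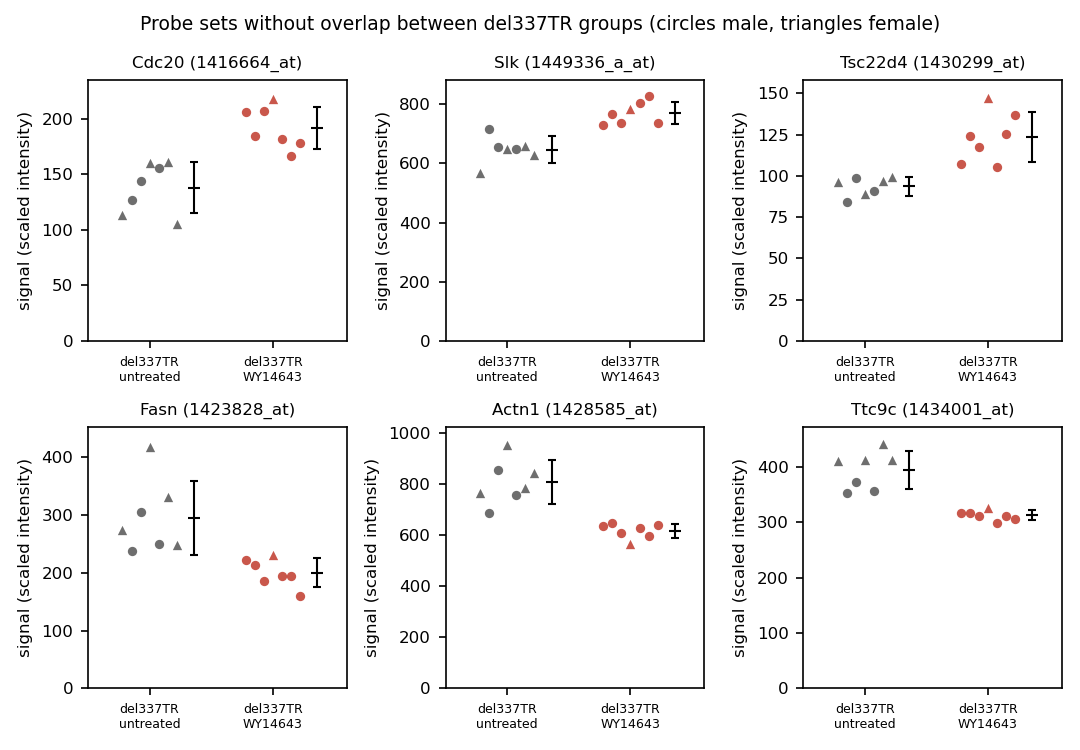
Signal (y axis, scaled intensity from 0) of 6 probe sets on the untreated and treated del337TR arrays (x axis), with circles for male and triangles for female arrays, and the mean with its standard deviation (n = 7) beside each group. Cdc20, Slk and Tsc22d4 lie wholly higher and Fasn, Actn1 and Ttc9c wholly lower on the treated arrays.

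Whether the effect of WY14643 differed between del337TR and control hearts was tested as the difference of the effects, which share no arrays. By Xist and Eif2s3y, 2 of the 7 untreated and 3 of the 7 treated control arrays came from females. Sex was therefore uneven in this difference too. The differences of effects of single genes, here and above, are given without sex in the fit, and its part in them was not tested. No probe set passed an adjusted p of 0.05 with limma (0 of 45037, 0.0%), the lowest adjusted p was 0.439, for St8sia2, and 2207 (4.9%) lay under an unadjusted p of 0.05, of which the higher made up 3.26% and the lower 1.65% of all tested, with 55.6% above 0. In control hearts alone 0 probe sets passed the adjusted threshold with limma, 3038 (6.75%) lay under an unadjusted p of 0.05 (2.39% in the upward and 4.36% in the downward direction), and 44.6% were above 0. In the controls 39 probe sets (0.0866%) did not overlap, 0.0533% higher and 0.0333% lower. Of the 2601 del337TR and 3038 control probe sets at that unadjusted threshold, 231 were shared, 8.88% of the first and 7.60% of the second. Of these, 176 had the same direction in both strains and 55 the opposite. Map3k7, a kinase of stress and cytokine signalling, had 1 of the smallest p-values for the difference. It read 71.9 to 197 (median 157) untreated and 180 to 226 (median 211) treated, a difference of 0.51 ± 0.16 in del337TR against -0.39 ± 0.16 in control hearts. The difference of effects was 0.90 ± 0.22, with an adjusted p of 0.956 with limma. The 4 other Map3k7 probe sets with a mean signal of at least 100 kept the direction in del337TR hearts but differed by less. Their differences there were 0.12 ± 0.083, 0.19 ± 0.14, 0.038 ± 0.67 and 0.13 ± 0.12. Prkx, a kinase on the X chromosome, had a difference of effects of 0.75 ± 0.20, and Ttc39b, which takes part in lipoprotein metabolism, of 1.17 ± 0.31. In the other direction stood Ing3, a reader of histone marks, at -0.77 ± 0.22, Cdc25a, a phosphatase of cell cycle entry, at -0.59 ± 0.18, and St7l at -0.55 ± 0.15.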

How the data were processed

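Heart RNA of 28 mice was hybridised to 1-colour arrays, 1 animal per array. The deposited values are intensity values on a linear scale. The submitters' processing notes name RMA, but the deposited intensity values are not of the form RMA gives: they are not on a log scale and their 2% trimmed mean is 250 on every array, so they were used as globally scaled signals. The labels name 7 individuals per group and no batch, so p-values measure the spread between these animals. Signals were floored at 0.1 and log2 transformed. limma 3.58.1 in R 4.3.3 fitted 4 group means to all 28 arrays (24 residual degrees of freedom, two-sided, Benjamini-Hochberg over 45037 probe sets, threshold 0.05), and the fit was tested on simulated data. Each listed gene was represented by whichever probe set was brightest on the log2 scale, and 539 of 585 list entries in 36 lists were matched. The comparison, its genes and the lists were chosen with earlier results of these data known. Named are the 15 smallest p-values per direction at a mean signal of at least 100, probe sets without overlap, up to 4 genes per list, a set of receptor, fuel and myosin genes, and 5 per direction for the difference of effects, some of which were left out. The genes of a list of 9 sex-linked genes, Xist and Eif2s3y among them, were not named as results. Other genes on the X chromosome, such as Prkx, were not left out. Laptm5, Cdc16, St8sia2, Hsp90aa1, Car3, Lipe, Fabp4 and Cidea were named after their values were seen. Of 93 probe sets named, 56 had another of the same gene at a mean signal of at least 100, and for 18 at least 1 of these had the opposite sign. Promoter windows are from RefSeq (GRCm38.p6).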

Additional observations from a re-analysis of the deposited data

Results flagged for a closer look

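In the groups of 7 arrays, a single array stood far from the other 6 for 22 of the 186 groups checked over 93 probe sets. The rule used gives about 1 in 20 for independent groups of normally spread values. These signals were on the linear scale and many of the genes were picked by their results. That rate is therefore no baseline here, and an excess was not tested. Among the untreated del337TR arrays, the high signals of lipid and fat genes were Scd1 on replicate 4 (1560, next 1013.6), Retn on replicate 7 (231.6, next 156) and Adipoq on replicate 4 (215, next 103.3). The high signals of stromal and vascular genes were Tcf21 on replicate 6 (1123.4, next 763.6), Tagln on replicate 4 (1248.7, next 652.2) and Pdgfrb on replicate 6 (1439.5, next 807.8). Others high on 1 untreated array were Dnajc1 on replicate 3 (162.2, next 149.1), Nr4a3 on replicate 5 (861, next 409.9), Ier3 on replicate 6 (1442.1, next 744.6) and Gata4 on replicate 6 (1311.9, next 746.4). Low on 1 untreated array were Laptm5 on replicate 2 (116.1, next 167.2), Jund on replicate 7 (1390.7, next 1757.5) and Ncoa1 on replicate 3 (551.5, next 671.6). Among the treated arrays, the high signals were Fbxw7 on replicate 3 (439.3, next 330.2), Angptl4 on replicate 3 (1518.2, next 709.2), Hsp90aa1 on replicate 3 (8947.9, next 6409.7) and Fabp4 on replicate 3 (13714.3, next 9467.8), all on the same animal. Others high on 1 treated array were Acot2 on replicate 4 (1707.1, next 1131.6), Retn on replicate 1 (154.3, next 84.6), Gadd45g on replicate 5 (828.8, next 490.7) and Tnni1 on replicate 7 (162.1, next 73.1). The low signal was Cflar on replicate 5 (279.4, next 371.9).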

How the results depend on the processing

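No probe set passed the adjusted threshold under 10 of the 11 other settings or when any 1 of the 14 del337TR arrays was left out. Leaving out 1 array gave a lowest adjusted p between 0.0658 and 0.77 and between 2201 and 3208 probe sets at an unadjusted p under 0.05. Male arrays alone gave 1 call, Actl7a (log2 difference 2.85 ± 0.30, adjusted p 0.00288 with limma, against 1.11 ± 0.48 over all arrays), and 648 probe sets lower at an unadjusted p under 0.05. They also gave medians of -0.16 for thyroid hormone induced and -0.12 for circadian genes. For the difference of effects log2 of the signal plus 16 gave 1 call, Slfn3 (2.15 ± 0.29, adjusted p 0.0019 with limma, against an adjusted p of 0.956). Above the 40th percentile of signal 818 probe sets were higher. With the adipocyte covariate, which also widened the errors, 683 were lower and 1607 differed in all. With the replicate number as a block 0 probe sets passed and 2745 had an unadjusted p under 0.05. The correlations of same-numbered arrays ran from 0.014 to 0.172, not all over 0.1, so the numbers were not taken to pair the animals. Each array correlated best with its own number for 3 of 7. The direction turned in male arrays for Pdk4 (-0.0054), Acot2 (-0.0057), Cd36 (-0.032), Acadm (-0.023), Acadl (-0.017), Hadhb (-0.012), Scp2 (-0.043), Thra (0.12), Myh7 (-0.038) and Gata4 (0.0087). With the adipocyte covariate it turned for Ucp3 (0.23), Acot1 (0.090), Car3 (0.12) and 2 Thra probe sets (0.018 and 0.028). Quantile normalization turned Myh6 (-0.0034), Myh7 (-0.015) and Fabp4 (-0.033), and Fabp4 also turned after centring (-0.022) and with sex as a covariate (-0.00095). Leaving out 1 array gave ranges across 0 of -0.17 to 0.052 for Ucp3, -0.14 to 0.044 for Thrb, -0.079 to 0.058 for Fabp4 and -0.0054 to 0.076 for Cidea. The causes were not tested. In the 1022 settings run for named probe sets other than leaving out an array, 1002 kept their direction and side of the threshold. The lowest adjusted p over all arrays was 0.239 with limma, and many of these probe sets were picked by their results. That count therefore says little on how stable the values are. In male arrays 10 of 93 turned sign and another 29 shrank by more than 1.5 times. With the adipocyte covariate 5 turned and 31 shrank. Genes of low signal have the widest errors, with a median SE of 0.268 over all probe sets and 0.132 at a mean signal of at least 100.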

Other observations

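The gene groups that follow had 0 members at an unadjusted p under 0.05 with limma, and 53.1% of all probe sets were above 0. Both values are from the fit over all arrays and are no background for counts from male arrays alone. Of 25 genes of glycolysis, glucose uptake and pyruvate oxidation 22 were higher and 3 lower (median log2 difference 0.047), of 19 sarcomere genes 17 and 2 (0.067), and of 15 citric acid cycle genes 12 and 3 (0.054). After quantile normalization the sarcomere median was -0.0034. In male arrays alone 13 of 25, 7 of 19 and 3 of 15 were higher, with medians of 0.0034, -0.016 and -0.022. In control hearts the medians over all arrays were 0.12, 0.14 and 0.10. Of 18 cell cycle genes, most of them faint, 14 were higher and 4 lower (0.23). Of 15 genes of cholesterol synthesis and uptake 4 were higher and 11 lower (-0.055). Divided nearly evenly over all arrays were the unfolded protein response (8 and 8 of 16), the amino acid response (6 and 6 of 12), oxidative stress and glutathione genes (8 and 6 of 14), circadian clock genes (10 and 9 of 19), extracellular matrix genes (9 and 11 of 20) and interferon induced genes (11 and 8 of 19). In male arrays alone 17 of the 20 matrix genes were higher (median 0.13 in place of -0.0069), as were 3 of the 14 oxidative stress genes (-0.066 in place of 0.021) and 7 of the 19 clock genes. Among markers of other tissues, 2 of 8 atrial markers were higher and 6 lower, with a median of -0.41, a wide spread within both groups and a median of 0.57 in male arrays alone. Red cell markers were higher in 3 of 3 (1 of 3 in male arrays alone), skeletal muscle markers in 7 of 10 and nerve, thymus and airway markers in 4 of 6, and the last 2 lists had 0 members with a mean signal of at least 100.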
